A study of Homo sapiens with 17 samples.

Results

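The genes described here are 10 KLF transcription factors, KLF2, KLF3, KLF4, KLF5, KLF6, KLF7, KLF9, KLF10, KLF11 and KLF13. They were taken by symbol from a fixed list and are 10 of the 19222 genes of the 1 h experiment. In the 2 h tables, 8 of them were listed among 9982 genes, and KLF2 and KLF4 were not. The cells were HEK-293T, a human line derived from embryonic kidney. Emetine is an alkaloid that stops translation elongation by blocking the movement of ribosomes along mRNA. The study used TimeLapse sequencing (TL-seq), in which cells are fed 4-thiouridine (s4U), so that RNA made during the labeling carries T-to-C conversions in its reads. Cells were given 500 µM s4U for 1 h with 1.8 µM emetine (3 libraries) or without emetine (3 libraries), and 1 more library of each kind had no s4U. In the 2 h experiment, 3 untreated libraries, 3 with 1.8 µM and 3 with 240 µM emetine were made, all with 250 µM s4U in their labels. All are of the same line, and nothing in the labels says whether replicates came from separate cultures, so the p-values measure the spread between these libraries only.

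KLF proteins are related to Krüppel of the fruit fly and to the SP factors, and bind GC-rich and CACCC boxes in promoters through C2H2 zinc fingers at their carboxyl end. The part in front of the fingers differs between members and recruits either coactivators (the group of KLF2, KLF4, KLF5, KLF6 and KLF7), the corepressor CtBP (KLF3) or the corepressor SIN3A (KLF9, KLF10, KLF11 and KLF13). Several members are known as early response genes whose mRNAs are short-lived, among them KLF2, KLF4, KLF6 and KLF10, the last also known as TGFβ-inducible early gene.

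RefSeq promoters (GRCh38.p14) matched 8 of the 10 genes, with 13 start sites in all. The bases before a start (up to 250, without any annotated exon) are shown for KLF6 and KLF11, whose levels rose after emetine, and for KLF13, whose level showed no change past the test. Capitals mark GC boxes (GGGCGG or its reverse complement CCGCCC) and, in KLF11, the cAMP response element TGACGTCA.
KLF6 (chr10:3785282-3785459, minus strand): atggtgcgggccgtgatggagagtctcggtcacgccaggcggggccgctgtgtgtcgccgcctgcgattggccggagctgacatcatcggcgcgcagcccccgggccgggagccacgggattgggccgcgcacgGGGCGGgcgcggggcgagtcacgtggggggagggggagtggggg
KLF11 (chr2:10043971-10044174, plus strand): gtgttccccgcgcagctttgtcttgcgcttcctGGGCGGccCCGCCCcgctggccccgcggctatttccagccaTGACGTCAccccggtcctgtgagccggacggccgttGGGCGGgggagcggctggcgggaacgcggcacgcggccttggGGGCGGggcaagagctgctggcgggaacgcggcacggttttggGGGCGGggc
KLF13 (chr15:31326585-31326834, plus strand): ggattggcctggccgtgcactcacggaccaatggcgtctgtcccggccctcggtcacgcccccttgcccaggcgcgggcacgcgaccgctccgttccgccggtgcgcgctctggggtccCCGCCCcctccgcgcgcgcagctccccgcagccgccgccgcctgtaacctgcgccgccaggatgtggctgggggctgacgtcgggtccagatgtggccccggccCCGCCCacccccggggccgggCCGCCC
A GC box, the letters GGGCGG on either strand, lay in 8 of the 13 windows and in 42.6% of all 35116 promoter windows of that length. The element TGACGTCA was found in 1 of the 13, the second start site of KLF11, and in 1.65% of all windows. The AP-1 site TGANTCA was found in 0 of the 13 and in 6.57% of all. CACCC boxes, searched as CCACCC on either strand, were found in 2 of the 13 and in 31.3% of all, and CCAAT on either strand in 6 of the 13 and in 32.0%. These are matches of letters and say nothing of binding, and the motifs can overlap one another.

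The 8 libraries of the 1 h experiment held 27416189 to 48852046 reads, of which 81.1% to 82.3% were given to genes. The third emetine library differed from its group: its deviations from the group mean had an SD of 0.25 on the log2 scale, against 0.13 and 0.15 for emetine replicates 1 and 2, and correlated with transcript length (Spearman's rho across genes 0.76, against -0.69 and -0.69, where the group mean includes replicate 3). Members whose call changed without it are named below, and other values that moved without it are given only in part. For the lists of related genes and partners, no fit without it is given. The share of reads modeled as new was 7.84%, 10.0% and 11.7% in the untreated libraries and 9.19% to 9.96% in the emetine libraries, so the fraction new of single genes moves with the labeling, whose part in the results was not tested. All 6 markers of HEK-293 cells were detected, with a summed level of 935 to 1059 counts per 1000000 gene reads after scaling (CPM) in untreated and 770 to 995 in emetine libraries. VIM alone stood at 460 to 657 CPM over the 8 libraries, whereas KRT8 stood at 3.76 to 7.06 and PAX2 at 1.23 to 2.93. NEFM, NEFL and KRT18 lay between. Of 5 markers of other cell types, COL1A1, a collagen gene, stood at 19.4 to 28.1 CPM, PTPRC was not listed and the other 3 were at most 0.157 CPM each.

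In untreated cells the members differed widely in level. In CPM per kilobase of transcript, KLF11 was highest with 6.62 ± 0.84 (SD, n = 3), followed by KLF5 with 5.92 ± 0.44, KLF3 with 5.75 ± 0.24 and KLF9 with 5.43 ± 0.09. On the same scale KLF13 stood at 4.14 ± 0.07, KLF10 at 2.51 ± 0.46, KLF6 at 2.46 ± 0.08 and KLF4 between 1.82 and 2.43. KLF7 with 0.551 ± 0.054 and KLF2 with 0.234 ± 0.017 were lowest. KLF11, KLF5 and KLF3 overlapped between neighbors, as did KLF10, KLF6 and KLF4, whereas KLF9, KLF13, KLF7 and KLF2 lay below the range of the gene above them. The median of the 12695 genes tested with a known length was 7.14, so all 10 members were below it. KLF2 rested on 15 to 23 reads per untreated library and KLF7 on 87 to 165.

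The turnover of these mRNAs in untreated cells was fast. The fraction new, the share of a gene's reads that carry the conversion rate of RNA made during the hour, was 12.2% for the median gene. KLF6, a factor induced by injury and growth signals, had 91.5%, 93.2% and 95.1% in the 3 untreated libraries, and only 13 of 10763 tested genes, KLF6 included, were as high in the mean. Of its 304 reads in untreated replicate 1, 30 had no conversion, 28 had 1, 41 had 2 and 205 had 3 or more. In the untreated library without s4U, 363 of 367 KLF6 reads had none. KLF10 had 69.9%, 83.0% and 93.2%, KLF11 67.7%, 74.9% and 79.2%, and KLF4, known from the reprogramming of cells to pluripotency, 69.1%, 73.1% and 78.2%. Each of these genes was lowest in replicate 1 and highest in replicate 3, as was the labeling of the libraries as a whole.

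The other members formed a graded series. KLF5, a factor of epithelial proliferation, had 54.1% to 70.2%, KLF7, a factor of neuronal outgrowth, 44.8% to 71.3%, and KLF9, a target of glucocorticoid and thyroid hormone, 51.5% ± 7.1 (SD, n = 3). KLF3 had 26.1%, 33.9% and 44.7%, and KLF13, a factor of lymphocytes and heart, 16.7%, 23.5% and 27.5%. KLF13 was thus the slowest in all 3 libraries, and KLF3 the second slowest. KLF2, a factor of the endothelium, had 87.1% and 84.5% and reached the upper bound of the estimate in the third, on 15 reads. Under a steady state, mean half-lives were 15.4 ± 1.5 min for KLF6, 24.5 ± 9.6 min for KLF10, 31.1 ± 5.3 min for KLF11, 31.5 ± 4.1 min for KLF4, 42.3 ± 9.9 min for KLF5, 51.1 ± 18.3 min for KLF7, 58.6 ± 12.1 min for KLF9, 103 ± 34 min for KLF3 and 171 ± 51 min for KLF13 (SD, n = 3). The ranges of neighbors in this order overlapped throughout, and the median fraction new of all genes corresponds to 5.35 h.

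**Figure D1:**
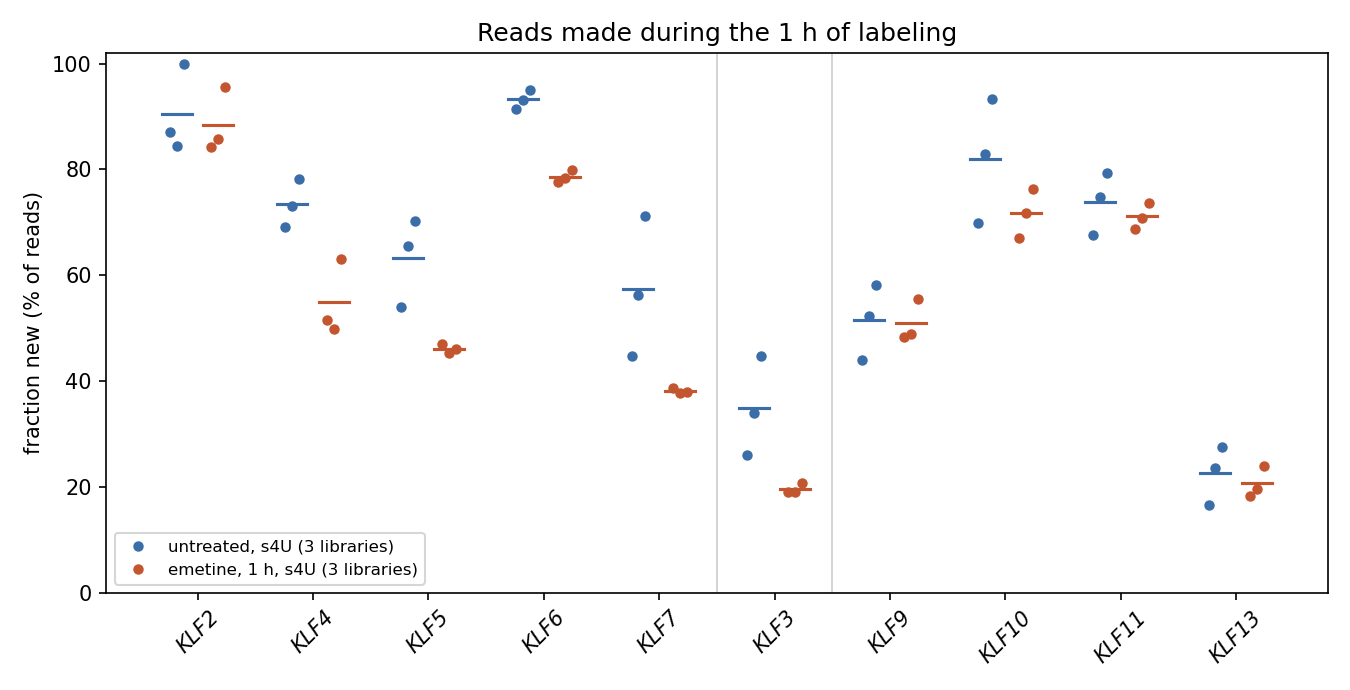
Fraction new in percent of reads for each of the 10 genes, with 1 point per library and a bar at the mean of the 3 untreated (blue) and 3 emetine (orange) libraries; gray lines part the activator group, KLF3 and the SIN3-binding group. For KLF3, KLF4, KLF5, KLF6 and KLF7 all 3 emetine points lie below the untreated ones, and for the other 5 genes the groups overlap.

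After 1 h of emetine, KLF6 and KLF10 had risen more than 2.4-fold and KLF5 and KLF11 1.51- and 1.60-fold. In bulk libraries like these, a change in the number of cells that express a gene and a change in RNA per cell cannot be told apart. Of the 10 members, all of which passed the filter of more than 100 counts over the 6 libraries, 4 were higher at an adjusted p-value under 0.05 (KLF5, KLF6, KLF10 and KLF11; edgeR's quasi-likelihood test with Benjamini-Hochberg adjustment over 13776 genes), against 2.64% of all genes tested. None was lower, against 0.0436% of all genes. At an unadjusted p under 0.05 it was also 0, against 958 of 13776 genes, and with DESeq2 0, against 156 of 12440 genes. By DESeq2, 5 of the 9 members given an adjusted p-value were higher (KLF9 added), against 820 of 12440 genes. In 7 of the 10, all emetine libraries lay above all untreated libraries in CPM, against 19.5% of all genes. The median log2 fold change was 0.61 over the members and 0.03 over all genes tested.

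In the activator group, KLF6 stood at 10.9, 11.4 and 11.6 CPM in the untreated and at 23.8, 22.8 and 35.1 CPM in the emetine libraries. The groups were far apart, and the log2 fold change was 1.27 ± 0.17 (SE; adjusted p = 0.0106). KLF5 went from 18.6, 19.4 and 21.5 CPM to 29.3, 26.6 and 33.7 CPM, also without overlap (log2 fold change 0.59 ± 0.12, adjusted p = 0.0407), but this call was lost with RLE normalization (adjusted p = 0.0501), spike-in scaling (0.160) and the replicate block (0.0774). KLF4 went from 6.96, 5.33 and 7.13 CPM to 9.22, 7.86 and 7.92 CPM. Its groups did not overlap, but the difference of 0.37 ± 0.16 did not pass the test (adjusted p = 0.225). KLF7 overlapped between groups, with 4.98, 4.73 and 4.11 CPM untreated and 4.91, 5.02 and 6.27 CPM with emetine (0.22 ± 0.17, adjusted p = 0.437). KLF2 had 17, 23 and 15 reads untreated and 51, 51 and 11 with emetine, so that replicate 3 was the lowest of all 6 libraries and the other emetine libraries the highest. Its log2 fold change was 0.70 ± 0.43 (adjusted p = 0.340), and 1.05 ± 0.31 without emetine replicate 3 (adjusted p = 0.0371).

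KLF3, the repressor that binds CtBP, stood at 32.1, 30.9 and 33.6 CPM untreated and at 37.7, 37.1 and 47.0 CPM with emetine. All emetine values were higher, but the log2 fold change of 0.34 ± 0.11 did not pass the test (adjusted p = 0.164). It was 0.12 with the trend by length and GC content removed, and 0.22 without emetine replicate 3 (adjusted p = 0.0514 by edgeR).

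In the SIN3-binding group, KLF10, which is induced by TGFβ, showed the largest change of the family. It had 5.88, 7.51 and 8.54 CPM untreated and 16.65, 17.98 and 24.51 CPM with emetine (log2 fold change 1.43 ± 0.19, adjusted p = 0.0104). KLF11, its closest relative, went from 26.0, 23.7 and 30.4 CPM to 37.8, 41.1 and 48.8 CPM (0.67 ± 0.13, adjusted p = 0.0360), a call lost with spike-in scaling (adjusted p = 0.141) and the replicate block (0.0535). Both genes were higher in each emetine library than in any untreated one. KLF9 also showed no overlap, from 27.7, 28.5 and 28.5 CPM to 37.8, 39.5 and 54.5 CPM, at an adjusted p of 0.0534 (0.64 ± 0.14). This p became 0.000852 without emetine replicate 3 and 0.00362 with DESeq2, fits that called 1367 of 13579 and 820 of 12440 genes higher. KLF13 had 28.9, 27.9 and 28.2 CPM untreated and 25.0, 23.0 and 39.1 CPM with emetine, below and above the untreated range. Its log2 fold change of 0.03 ± 0.18 (adjusted p = 0.932) became -0.24 without emetine replicate 3 (adjusted p = 0.0638). By these changes KLF10 and KLF6 moved up in the order of CPM per kilobase, to 6.76 ± 1.44 and 5.93 ± 1.49, while KLF13 had 4.24 ± 1.28 (SD, n = 3).

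**Figure D2:**
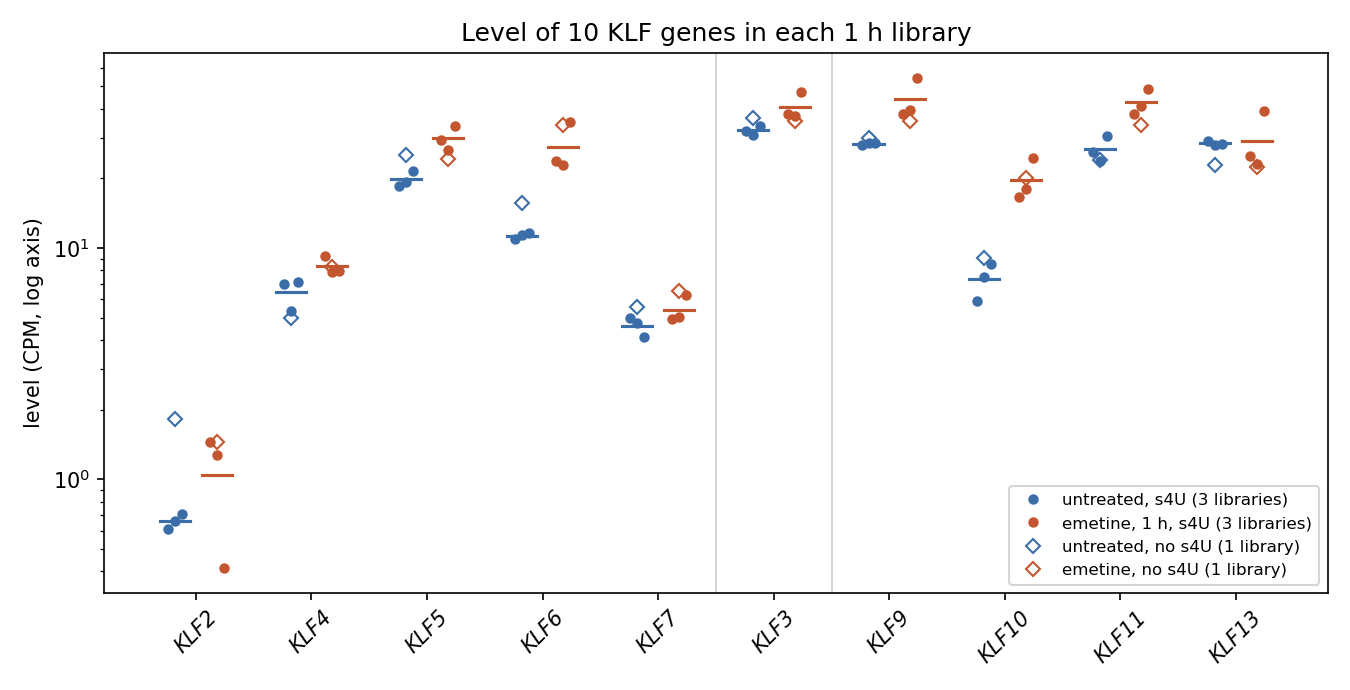
Level of each gene in CPM on a log axis, with filled points for libraries with s4U, a bar at their mean and open diamonds for the single libraries without s4U (blue untreated, orange emetine). KLF6 and KLF10 show the widest gap between the filled groups, and emetine replicate 3 is the lowest of all points for KLF2 and the highest for KLF13.

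The calls of level rested on all libraries: without any 1 of the untreated libraries, none of the 4 members passed (lowest adjusted p 0.0644, KLF10 without untreated replicate 3), while only 4, 5 and 18 genes of all were then higher. Without emetine replicate 1, KLF6 and KLF10 passed, beside 132 of 13506 genes. Without emetine replicate 2, KLF5, KLF6 and KLF10 passed, beside 239 of 13499. Without emetine replicate 3, 6 members passed (KLF2, KLF5, KLF6, KLF9, KLF10 and KLF11), beside 1367 of 13579 genes in place of 363 of 13776. The log2 fold change of KLF10 stayed between 1.26 and 1.55 and that of KLF6 was at least 1.05 in all these fits.

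The fraction new fell in KLF3, KLF4 and KLF6 after emetine. KLF2 and KLF7 had fewer than 100 reads in a library and were not in the main test. Of the other 8 members 3 were lower at an adjusted p-value under 0.05 (limma on the logit, over 10763 genes), against 4.83% of all genes. None was higher, against 0.214% of all, and 0 at an unadjusted p under 0.05, against 124 of 10763 genes. With each library centered on its median, 748 genes were lower and 126 higher, in place of 520 and 23, and the 3 members called were KLF3, KLF5 and KLF6. The median change in logit was -0.73 over the 8 members and -0.16 over all genes. In 4 of the 8 all emetine values lay below all untreated values, against 16.8% of all genes.

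KLF6 fell from the values above to 77.6%, 78.3% and 80.0% (change in logit -1.34 ± 0.28, adjusted p = 0.00125), and it was the member that passed in each fit with a library left out. In emetine replicate 1, 214 of its 832 reads carried no conversion. With the share of reads with 2 or more conversions in place of the fraction new, KLF6 changed by -0.78 in logit (adjusted p = 0.0110 by limma). In that fit KLF4 changed by -0.79 and KLF3 by -0.76, so KLF6 did not stand apart from them. KLF4 fell to 51.6%, 49.9% and 63.1% (-0.83 ± 0.25, adjusted p = 0.0368), and KLF3 to 19.0%, 19.1% and 20.8% (-0.77 ± 0.22, adjusted p = 0.0201). For both, leaving out any library other than untreated replicate 1 ended the call (adjusted p of 0.0768 to 0.328). A minimum of 50 reads ended both calls (adjusted p = 0.1001 for KLF4 and 0.0758 for KLF3), and median centering that of KLF4 (0.0505). KLF5 had 47.0%, 45.3% and 46.0%, below all untreated values, at an adjusted p of 0.0693 (-0.71 ± 0.24) that was 0.0165 with median centering. KLF7, with 38.8%, 37.9% and 38.0%, also lay below its untreated values. It was not in the main test, and it did not pass in the fit with a minimum of 50 reads. Without untreated replicate 1, the library with the lowest labeling, KLF5 and KLF10 passed as well and 2522 of all genes were lower.

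None of the SIN3-binding members passed the test, and in each the groups overlapped. KLF10 had 67.1%, 71.8% and 76.2%, overlapping the wide untreated range (-0.75 ± 0.34, adjusted p = 0.265). Its change was -1.17 without untreated replicate 1 (adjusted p = 0.0267) and -0.28 without untreated replicate 3 (adjusted p = 0.781). KLF11 had 68.8%, 70.9% and 73.7% (-0.15 ± 0.26, adjusted p = 0.855), KLF9 48.4% to 55.6% (-0.02 ± 0.24, adjusted p = 0.983) and KLF13 18.4%, 19.7% and 24.0% (-0.10 ± 0.21, adjusted p = 0.897). A difference between the groups of members was not tested.

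**Figure D3:**
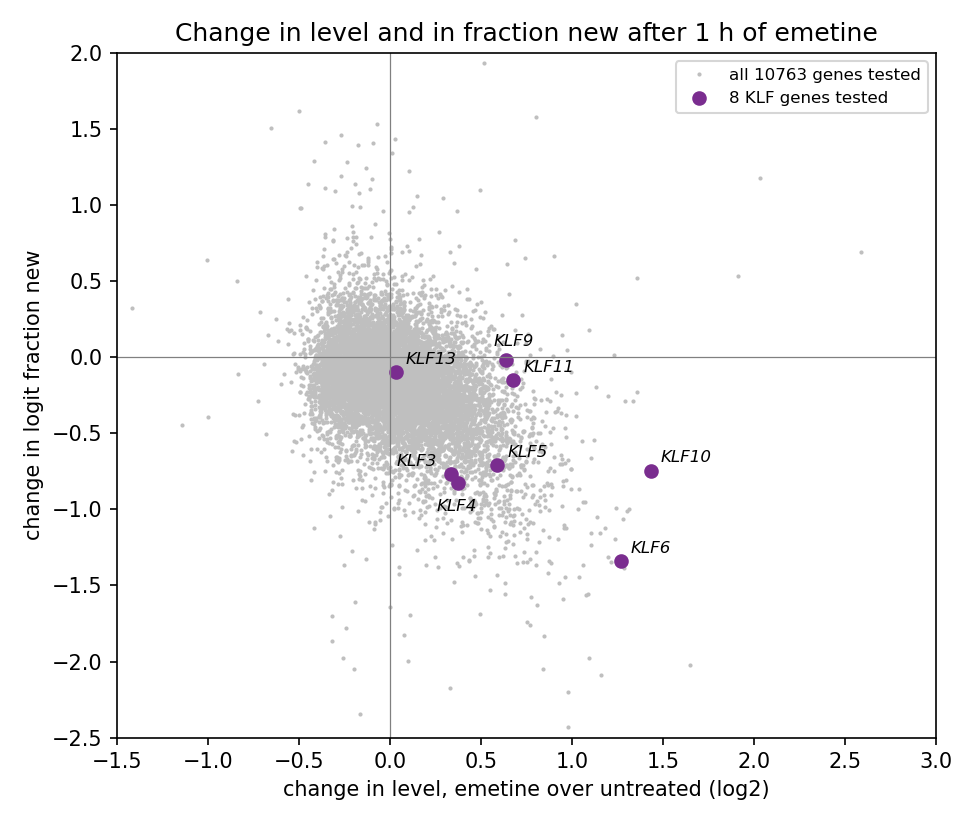
Change in level (log2, x axis) against change in logit of the fraction new (y axis), emetine over untreated, for 8 KLF genes (purple) and all 10763 genes tested (gray; 6 lie outside the axes). KLF6 lies at the lower right, KLF10 farthest to the right, KLF9 and KLF11 to the right near 0 and KLF13 near the origin.

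Multiplying the level by the fraction new gives the labeled reads, of RNA made during the hour, and the remainder gives the unlabeled reads, of RNA that was there before. In unlabeled reads, 7 of the 8 members were higher after emetine (limma on log2 of CPM plus 0.5, adjusted p under 0.05), against 7.3% of all genes. KLF13 was the exception (log2 fold change 0.03 ± 0.18, adjusted p = 0.922), and none was lower, against 0.0929% of all (at an unadjusted p under 0.05, 0 against 761 of 10763 genes). The unlabeled reads of KLF6 rose from 0.929, 0.780 and 0.572 CPM to 5.31, 4.95 and 7.03 CPM (2.31 ± 0.20, adjusted p = 0.000559). Those of KLF10 rose from 1.77, 1.28 and 0.578 CPM to 5.47, 5.08 and 5.83 CPM (1.87 ± 0.26, adjusted p = 0.00428), and those of KLF5 from 8.54, 6.68 and 6.41 CPM to 15.5, 14.5 and 18.2 CPM (1.11 ± 0.16, adjusted p = 0.00435). For these 3 genes the call held without each library in turn. The size of the change in KLF6 and KLF10 depended on the CPM added before the log2. With 0.1 CPM and with 2 CPM added, it was 2.775 and 1.485 for KLF6 and 2.204 and 1.233 for KLF10. Both genes still passed the limma test in these fits (highest adjusted p 0.00626, KLF10 with 0.1 CPM). KLF4, KLF11, KLF3 and KLF9 rose by 0.95 ± 0.21, 0.79 ± 0.16, 0.63 ± 0.14 and 0.62 ± 0.14 (adjusted p = 0.0266, 0.0176, 0.0261 and 0.0336). These 4 no longer passed without untreated replicate 2 or without untreated replicate 3, which left 3 members higher, and KLF4 and KLF9 not without emetine replicate 1 or 2 either.

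In labeled reads, KLF6 and KLF10 were higher, 2 of the 8 members, against 0.26% of all genes, and none was lower, against 0.632% of all (at an unadjusted p under 0.05, 0 against 1138 of 10763 genes). Labeled KLF6 went from 9.97, 10.62 and 10.99 CPM to 18.4, 17.9 and 28.1 CPM (log2 fold change 0.96 ± 0.23, adjusted p = 0.0109). Labeled KLF10 went from 4.11, 6.23 and 7.97 CPM to 11.2, 12.9 and 18.7 CPM (1.17 ± 0.25, adjusted p = 0.00112). Neither gene overlapped between groups. Both calls were lost without emetine replicate 3 (0.76, adjusted p = 0.497 and 0.97, adjusted p = 0.199) and without untreated replicate 2 (adjusted p = 0.314 and 0.0605), and that of KLF6 also without emetine replicate 1 or 2 (adjusted p = 0.172 and 0.0736). Labeled KLF11 and KLF9 lay above all untreated libraries as well, with 26.0, 29.2 and 36.0 CPM against 17.6, 17.8 and 24.1 CPM for KLF11 and 18.3, 19.4 and 30.3 CPM against 12.2, 14.9 and 16.6 CPM for KLF9, but did not pass the test (0.61 ± 0.22, adjusted p = 0.181 and 0.59 ± 0.23, adjusted p = 0.219). KLF5 (0.13 ± 0.24), KLF4 (-0.05 ± 0.26), KLF13 (-0.10 ± 0.26) and KLF3 (-0.44 ± 0.25) overlapped between groups. The share of all genes without overlap in labeled reads was not computed, so the separations have no background beside them.

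The mean gain in CPM divided differently among the members. Unlabeled reads made up 8.87 of the 10.0 CPM that KLF5 gained, 5.01 of the 15.9 CPM of KLF6, 4.25 of the 12.4 CPM of KLF10, 5.30 of the 15.9 CPM of KLF11 and 7.62 of the 15.7 CPM of KLF9. For KLF3 the unlabeled reads gained 11.7 CPM and the labeled reads fell by 3.27 CPM. Unlabeled and labeled changes of the same signs were 2.06 and -0.20 CPM in KLF4, 1.34 and -0.55 CPM in KLF7 and 0.90 and -0.21 CPM in KLF13. These parts are differences of means with no test of their own.

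**Figure D4:**
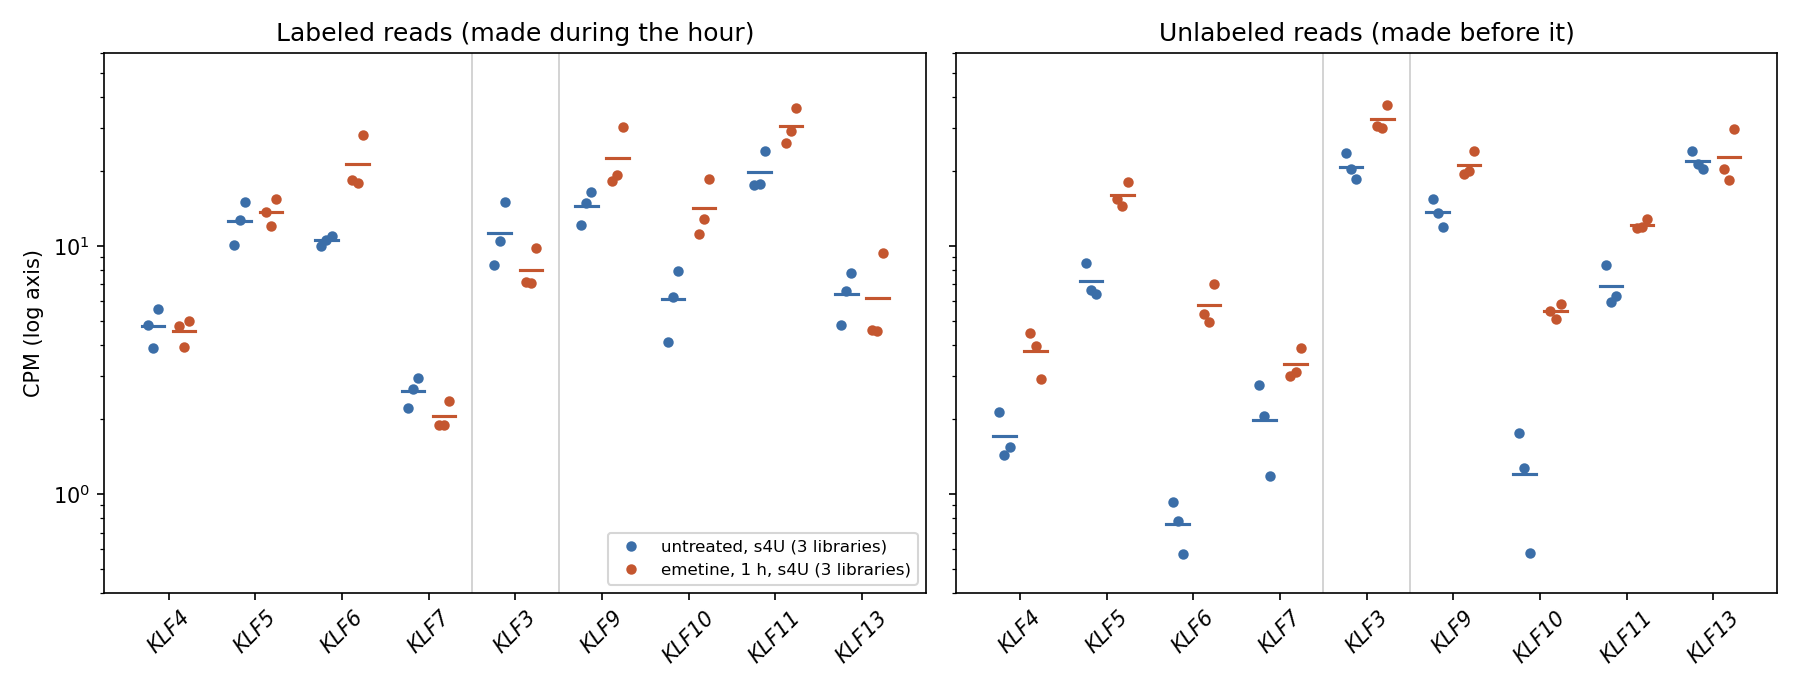
Labeled (left) and unlabeled (right) reads in CPM on a shared log axis for 9 genes (KLF2, with too few reads, is left out), with 1 point per library and a bar at the mean of the 3 untreated (blue) and 3 emetine (orange) libraries. In unlabeled reads all members but KLF13 are separated, with KLF6 and KLF10 farthest apart, and in labeled reads KLF6, KLF9, KLF10 and KLF11 are. The share of all genes separated in this way was not computed for labeled or unlabeled reads.

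The libraries without s4U, 1 of each treatment, allow no test. Scaled with all 8 libraries, KLF10 stood at 9.04 CPM (213 reads) untreated and 20.1 CPM (638 reads) with emetine, a ratio of 2.22, beside 2.70 for the means of the libraries with s4U. KLF6 stood at 15.6 CPM (367 reads) and 33.9 CPM (1076 reads), a ratio of 2.17 beside 2.41. Exact Poisson 95% intervals, which cover counting error only, were 185 to 244 and 589 to 689 reads for KLF10 and 330 to 407 and 1013 to 1142 reads for KLF6. The ratios were 1.67 for KLF4, 1.41 for KLF11, 1.18 for KLF9, 1.18 for KLF7, 0.982 for KLF13, 0.969 for KLF3 and 0.960 for KLF5, beside 1.29, 1.59, 1.56, 1.17, 1.02, 1.26 and 1.51 with s4U. KLF5 and KLF3, which were above all untreated libraries with s4U, were therefore not higher without it. KLF2 had 43 reads (1.82 CPM) untreated and 46 reads (1.45 CPM) with emetine, and the untreated library without s4U was above the 0.610 to 0.708 CPM of the untreated libraries with s4U. That library was also above the untreated s4U range for KLF3, KLF5, KLF6, KLF7, KLF9 and KLF10. For KLF6 it had 15.6 CPM against at most 11.6, and for KLF5 25.2 CPM against at most 21.5. It lay below that range for KLF4 and KLF13 and within it for KLF11. The reason was not tested.

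For the 2 h experiment, the deposited tables give 1 mean of normalized counts per gene over all its libraries, the same in the tables of both doses, and this authors' mean has no SD or n. KLF3 was highest with 2723 and KLF9 next with 2130, followed by KLF6 with 944, KLF5 with 837, KLF10 with 798, KLF13 with 692, KLF11 with 666 and KLF7 with 178. The median gene of these tables had 845. These counts are not divided by transcript length, so they give no order of the genes among themselves per molecule, and no change between doses was computed from them.

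Related genes and partners were few, and 2.64% of all genes were called higher in level by edgeR and 820 of 12440 by DESeq2. Counts of 0 in these lists are therefore near the background. Of 7 other KLF genes, 5 had enough reads for the level test and 0 were called in either direction by edgeR or DESeq2, with 1, KLF12, at an unadjusted p under 0.05 in both. KLF16 and KLF12 were the most abundant, with 52.8 ± 1.7 and 23.9 ± 2.1 CPM untreated and 52.0 ± 4.2 and 31.2 ± 5.3 CPM with emetine (SD, n = 3), whereas KLF17 had 0 to 3 reads. Of 9 SP genes, the closest relatives of the KLF genes, 7 were tested and 0 called by either tool. SP3, SP4, SP8 and SP9 were higher at an unadjusted p under 0.05 in both, beside 2056 of 13776 genes in edgeR. Their emetine CPM were 60.4 ± 15.3, 11.8 ± 4.0, 3.50 ± 1.19 and 6.29 ± 2.63, against 46.1 ± 1.9, 7.97 ± 0.73, 2.22 ± 0.43 and 3.35 ± 0.61 untreated (SD, n = 3). Each had its most emetine reads in replicate 3, the emetine library with the fewest reads, and no fit without that library is given for them. The median log2 fold change was 0.39 over the 7 SP genes tested and 0.16 over the other KLF genes. In the fraction new test, 0 of 3 other KLF genes and 0 of 4 SP genes were called, beside 4.83% of all genes lower and 0.214% higher. KLF16 was lower at an unadjusted p under 0.05, beside 1655 of 10763 genes. All genes named from these lists and those of the next paragraph, other than MEF2C, were chosen after their values were seen.

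Of 10 cofactors (SIN3A, SIN3B, HDAC1, HDAC2, HDAC3, CTBP1, CTBP2, EP300, CREBBP and KAT2B), 0 were called in level by either tool and 0 in fraction new. In fraction new, 4.83% of all genes were called lower and 0.214% higher. At an unadjusted p under 0.05, EP300, a histone acetyltransferase, was higher in level with both tools, beside 2056 of 13776 genes in edgeR. EP300 had 83.2 ± 4.1 CPM untreated and 124 ± 53 CPM with emetine (SD, n = 3). Its emetine reads were 3525, 3468 and 4925, the last in replicate 3, the emetine library with the fewest reads. At the same threshold CTBP1 was lower with DESeq2, as were 1482 genes in all. SIN3B and EP300 were lower in fraction new, beside 1655 of 10763 genes. SIN3A had 72.8 ± 1.9 CPM untreated and 80.6 ± 8.6 CPM with emetine (SD, n = 3). Of 7 upstream kinases, MEF2 factors and ubiquitin ligases, 0 were called in level by either tool (MEF2C at an unadjusted p under 0.05 in both) and 1 was lower in fraction new, beside 4.83% of all genes. MAPK7 and FBXW7 were lower in fraction new at an unadjusted p under 0.05 only, beside 1655 of 10763 genes. The gene called was MEF2C, a MADS-box factor that drives KLF2 in endothelium, with 25.3 ± 8.5% untreated and 12.6 ± 1.3% with emetine (change in logit -0.83 ± 0.21, adjusted p = 0.00975), at 13.9 ± 1.2 and 17.3 ± 1.6 CPM.

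Features of sequence varied among the 10 genes, other than those that come with the family's zinc fingers. In the GENCODE 44 canonical transcripts, codons for cysteine and histidine, the residues that hold zinc in the fingers, made up 5.80% (KLF3) to 9.84% (KLF9) of the coding sequence, above the median of 4.41% over 12066 tested coding genes in all 10. The 3′ UTRs ran from 899 bases (KLF4) to 7076 bases (KLF7), of which 8 were longer than the median of 1378 over those 12066 genes, and held between 2 (KLF4) and 20 (KLF7) copies of ATTTA, the core of AU-rich elements. Per kilobase of 3′ UTR, 8 of the 10 exceeded the median of 1.72 copies, KLF5 being highest with 3.03, and the exceptions were KLF6 with 1.69 and KLF13 with 0.893. The longer motif TTATTTATT was found once, in KLF5, and in 9.64% of all these genes. KLF6, with the highest fraction new of the tested members, was close to the median gene in copies per kilobase. It held 6 copies in all, above the median of 2. KLF13, with the lowest fraction new, had the fewest copies per kilobase. GC content ran from 41.1% (KLF3) to 61.2% (KLF2). No chance test was made of these features.

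By position, the genes lie apart on the GRCh38 assembly, which is the hg38 build of the reads. In GENCODE 44, KLF11 (chr2:10042849-10054836, plus strand) and KLF7 (chr2:207074137-207173856, minus strand) share chromosome 2, and KLF4 (chr9:107484852-107490482) and KLF9 (chr9:70384604-70414657) share chromosome 9, both on the minus strand. KLF3 is at chr4:38664197-38701517, KLF5 at chr13:73054976-73077541, KLF13 at chr15:31326835-31435665 and KLF2 at chr19:16324826-16328685, all on the plus strand. KLF6 is at chr10:3775996-3785281 and KLF10 at chr8:102648784-102655725, both on the minus strand. Processed pseudogenes are annotated for KLF2 (4), KLF3 (2), KLF4 (1) and KLF7 (1). None of these 8 was listed in the table, and how reads that fit both a gene and its pseudogene were counted is not given in the sources used here, so these 4 genes are less certain. The antisense gene KLF3-AS1, which overlaps the start of KLF3, had at most 7 reads in a library.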

How the data were processed

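TL-seq libraries of HEK-293T cells were made with a stranded mRNA kit (1 h) or a total RNA kit (2 h). The authors trimmed reads with cutadapt, aligned them with hisat-3n (hg38), and used bam2bakR to tally, for each read, its T positions and how many were converted to C. The deposited 1 h table holds whole read counts per gene, library and number of conversions, without normalization. The number of unmapped columns of other samples was 0. The deposited 2 h tables hold the mean of normalized counts, a signal the authors made with DESeq2 and spike-in factors, which was used as deposited, and log2 fold changes, standard errors, test statistics and p-values, which were not used. The table of spike-in factors was not used.

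Counts were summed per gene, and 17147 of 19222 symbols matched GENCODE 44. Levels were compared with edgeR 4.0.16 (TMM, quasi-likelihood test; R 4.3.3), where 13776 genes exceeded 100 counts in total. CPM are counts per 1000000 after TMM scaling, and the scaling over 6 or 8 libraries differed by at most 0.107%. The fraction new is the weight of a 2-component binomial mixture (Python 3.11.15, numpy 2.4.6), with background rates of 0.0504% and 0.0521% of T from the libraries without s4U and rates of 8.49% to 9.53% in new RNA. Its logit, and log2 of labeled and unlabeled CPM plus 0.5, were compared with limma 3.58.1 (trend, robust) where all 6 libraries held 100 reads or more of a gene (10763 genes), and adjusted p-values are by the Benjamini-Hochberg method over all genes. Half-lives are -ln(2) times 1 h over ln(1 - fraction new). The smallest p of an exact permutation test of 3 libraries against 3 is 0.1, so none was used. The authors used bakR for the kinetics, which was not run here. No molecular identifiers are described, so depth limits precision by counting error at best.

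On simulated data, edgeR recovered 100% of 200 genes changed by a log2 of 1.5 among 13719, with 6.98% of calls false, and the fraction new step 88% of 200 genes changed by a logit of 1.0 among 3000, with 9.74% false. The simulated counts had a common dispersion for all genes and no deviating library, and the changed genes were drawn from those with higher counts. The simulated fractions new had independent noise and no shift shared by a library. The rates in the real libraries can therefore differ. The largest log2 fold change in level of a member by edgeR with TMM was 1.43 (KLF10). Recovery of changes below a log2 of 1.5 or a logit of 1.0 was not tested. Alternatives included DESeq2 1.42.0, trends fitted with mgcv 1.9.3 and each library left out. The genes, lists, tests and alternatives were chosen with earlier results of these data known. The members are all named. From the other lists, called genes were to be named, at most 3 each by level p. One list of marker genes is not reported here.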

Additional observations from a re-analysis of the deposited data

How the results depend on the processing

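Depth limits KLF2 and KLF7 most. The number of members called depended on the fit. For level (4 higher), it was 2 with spike-in scaling and 2 with the replicate block (KLF6 and KLF10 in both), and 0 to 6 with a library left out. Spike-in scaling moved the median of all genes to 0.71, beside which KLF10 had 2.11 and KLF6 1.97. For fraction new (3 lower), it was 1 with at least 50 reads (KLF6), 1 with at least 500 reads (KLF3, of 4 tested), 5 with the replicate block (KLF5 and KLF10 added) and 1 to 5 with a library left out. For labeled reads (2 higher, 0 lower), 0 to 3 were higher and 0 to 1 lower with a library left out, the latter being KLF3 without untreated replicate 1. For unlabeled reads (7 higher), it was 4 with the replicate block and 3 to 7 with a library left out. The other 63 member counts stayed within 1.5 times, though not always with the same genes, and no member was called in the opposite direction. The replicate numbers did not pair the libraries: deviations of same-numbered libraries correlated at 0.07, -0.02 and -0.19 in level and at 0.06, 0.00 and 0.02 in fraction new across genes. Counts over all genes ranged from 4 to 1367 higher and 0 to 525 lower in level, 98 to 2522 lower and 10 to 126 higher in fraction new, 13 to 64 higher and 2 to 1737 lower in labeled reads, and 282 to 1447 higher and 4 to 322 lower in unlabeled reads. Signs changed only in uncalled members. For level, KLF7 was -0.0058 and KLF13 -0.13 with the length and GC trend removed, and KLF13 -0.0084 with the replicate block and -0.24 to 0.17 with a library left out. For fraction new, KLF9 was 0.11 and KLF13 0.029 when median centered, and with a library left out KLF9 was -0.17 to 0.11 and KLF13 -0.27 to 0.045. With a library left out, labeled KLF4 was -0.17 to 0.061, KLF5 -0.014 to 0.27 and KLF13 -0.41 to 0.065, and unlabeled KLF13 -0.17 to 0.16. The causes were not tested.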
